A study of Oryza sativa with 12 samples.

Results

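Among the genes expressed in rice leaves, 76 gene IDs stood higher in plants given both VdAL and azoxystrobin than in every library of plants given water, azoxystrobin alone or VdAL alone, while neither agent alone moved their mean far from water. These 76 IDs are described here. They were selected on the measured levels of all 12 libraries, out of 21381 IDs that passed a filter on low counts and 88438 IDs in the count tables. Their elevation in the combination is therefore how they were found, and it is given as a description without a test.

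The 12 RNA sequencing libraries came from leaves of the indica hybrid rice TU100, taken when the plants were 1 month old. The 4 treatments had 3 libraries each and are written in the labels as Water, azoxystrobin, VdAL, and VdAL+ azoxystrobin, the last of which is called the combination below. All groups share the cultivar, the tissue and the age, and the labels give no dose and no time after treatment. The growth note speaks of plants from 4 areas without tying an area to a treatment, so area and treatment cannot be told apart, and nothing says whether separate plants gave the 3 libraries of a treatment. No leaf marker could be looked up, because the files hold IDs without gene names, and a lookup in the reference table of japonica rice genes found 0 of them.

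Azoxystrobin is a strobilurin fungicide, which stops respiration in fungi by blocking the quinol oxidation site of mitochondrial complex III. Plant mitochondria carry the same complex, together with an alternative oxidase that can pass electrons to oxygen without it. The labels do not spell out the name VdAL. A layout that crosses the presence of 2 agents allows each gene's level under both to be set beside its level under each alone, and a gene that stays near the water level under either agent but not under both is one for which the single treatments do not add up to the joint one.

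Levels are in CPM, the read count of an ID relative to the library's total, which was first scaled by TMM, a trimmed mean of the log ratios between libraries. CPM is not divided by gene length, so it depends on gene length as well as on transcript number and does not rank genes by abundance. A member had a mean of at least 5 CPM over the 12 libraries, all 3 combination libraries above all 9 others, a combination mean at least 1.4 times the mean of those 9, and means in azoxystrobin and in VdAL close to the water mean, at no less than 0.8 times it and no more than the inverse of that factor. The CPM floor left 15558 IDs. Of these 222 had the 3 combination libraries above the other 9, 106 of them also reached the ratio, and 76 also had both single-treatment means close to water. A list limit of 150 IDs was not reached. Another 125 IDs met everything except the separation of the libraries, and 30 met everything except the closeness to water.

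The elevation of the members was modest. The ratio of the combination mean to the mean of the other 9 libraries had a median of 1.52 and ran from 1.402 to 2.08, and 1 member exceeded 2. The distance between the groups was narrow. The lowest combination library was above the highest of the other 9 by a factor with a median of 1.06 and a maximum of 1.27. Folds of the combination over each of the other treatments were alike in size, which the rule favours by holding the single-treatment means close to water. The median was 1.52 over water (range 1.28 to 2.19), 1.56 over azoxystrobin (range 1.28 to 2.098) and 1.54 over VdAL (range 1.28 to 2.25). In bulk leaf RNA, a change in the cells that make up a leaf and a change in RNA per cell cannot be told apart.

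**Figure D1:**
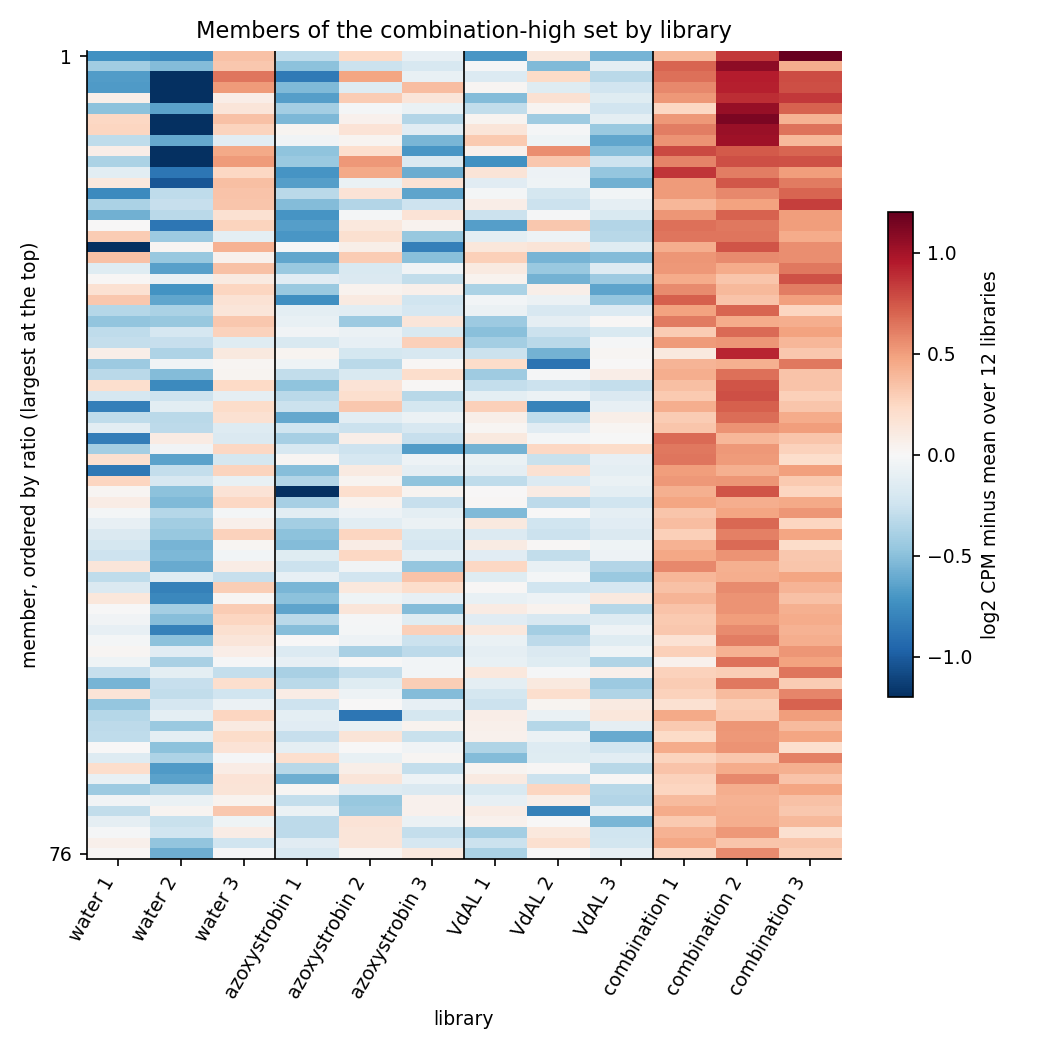
Log2 CPM of the 76 members (rows, largest ratio at the top) in the 12 libraries (columns), each minus the member's own mean over the 12 libraries; colours saturate at 1.2 on either side. All members are red in the 3 combination libraries, water replicate 2 is the bluest column for many, and water replicate 3 is the warmest of the other 9.

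The member with the largest ratio, 2.08, was BGIOSGA020359. Its levels were 8.24, 8.06 and 17.4 CPM in water, 11.1, 16.2 and 12.8 CPM in azoxystrobin, 8.41, 14.96 and 9.31 CPM in VdAL, and 17.8, 24.6 and 31.2 CPM in the combination, in the order of replicates 1 to 3. Water replicate 3 reached almost the level of the lowest combination library, and the groups did not overlap. The mean was 24.6 ± 6.68 CPM in the combination and 11.2 ± 5.34 CPM in water (SD, n = 3 each).

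BGIOSGA017356 had the next ratio, 1.97. It stood at 79.8, 74.3 and 133 CPM in water, 75.7, 89.1 and 93.1 CPM in azoxystrobin, 106, 73.9 and 98.3 CPM in VdAL, and 172, 224 and 144 CPM in the combination. Water replicate 3 was again the nearest of the other libraries, while the other 8 stayed at or under 106 CPM. The combination mean was 180.3 ± 40.6 CPM against 95.7 ± 32.5 CPM in water, 85.9 ± 9.13 CPM in azoxystrobin and 92.6 ± 16.7 CPM in VdAL (SD, n = 3 each).

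The member with the highest mean CPM was BGIOSGA035064. Its levels were 1078, 864 and 1203 CPM in water, 869, 1053 and 1096 CPM in azoxystrobin, 1252, 974 and 1051 CPM in VdAL, and 1491, 1863 and 1377 CPM in the combination. Here a VdAL library came nearest to the combination, and the combination mean of 1577 ± 254 CPM was 1.503 times that of the other 9 libraries. BGIOSGA033513, next by CPM, stood at 335, 330.2 and 469 CPM in water, 269, 378 and 392 CPM in azoxystrobin, 434, 334 and 433 CPM in VdAL, and 508, 657 and 562 CPM in the combination. In both of these members combination replicate 2 was the highest of all libraries.

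At the low end of the CPM range, BGIOSGA036738 stood at 4.05, 4.73 and 6.14 CPM in water, 4.74, 2.81 and 4.46 CPM in azoxystrobin, 5.43, 4.86 and 5.67 CPM in VdAL, and 7.03, 6.38 and 7.29 CPM in the combination. These values rest on 20 to 56 reads per library, and the highest water library lay just under the lowest combination library. BGIOSGA021111, at 3.47, 4.13 and 5.85 CPM in water, 3.163, 5.06 and 5.78 CPM in azoxystrobin, 4.31, 5.12 and 4.55 CPM in VdAL, and 7.43, 8.45 and 7.29 CPM in the combination, rests on 24 to 57 reads. Its groups stood further apart than those of BGIOSGA036738, by a factor of 1.247 against 1.04.

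The widest distance, 1.27, belonged to BGIOSGA025825, with 8.53, 1.21 and 8.62 CPM in water, 7.30, 8.01 and 6.50 CPM in azoxystrobin, 7.90, 7.09 and 5.26 CPM in VdAL, and 10.9, 14.7 and 11.2 CPM in the combination. Water replicate 2 was far below all other libraries for this ID, with 12 reads. BGIOSGA031335 followed at 1.26, with 25.7, 20.6 and 25.7 CPM in water, 23.96, 25.2 and 24.2 CPM in azoxystrobin, 18.1, 26.2 and 24.3 CPM in VdAL, and 33.1, 36.3 and 37.9 CPM in the combination. Its 9 other libraries ran from 18.1 to 26.2 CPM, and the combination stood clear of each.

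Other members were separated by almost nothing. For BGIOSGA028870 the levels were 23.4, 29.5 and 35.95 CPM in water, 27.4, 21.4 and 29.9 CPM in azoxystrobin, 30.7, 16.4 and 27.01 CPM in VdAL, and 39.1, 38.7 and 35.96 CPM in the combination. Water replicate 3 and combination replicate 3 were level here. BGIOSGA020564 had 5.93, 6.35 and 8.91 CPM in water, 8.15, 7.17 and 7.10 CPM in azoxystrobin, 7.07, 9.58 and 6.37 CPM in VdAL, and 9.60, 10.8 and 11.1 CPM in the combination. VdAL replicate 2 and combination replicate 1 were level for this ID.

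**Figure D2:**
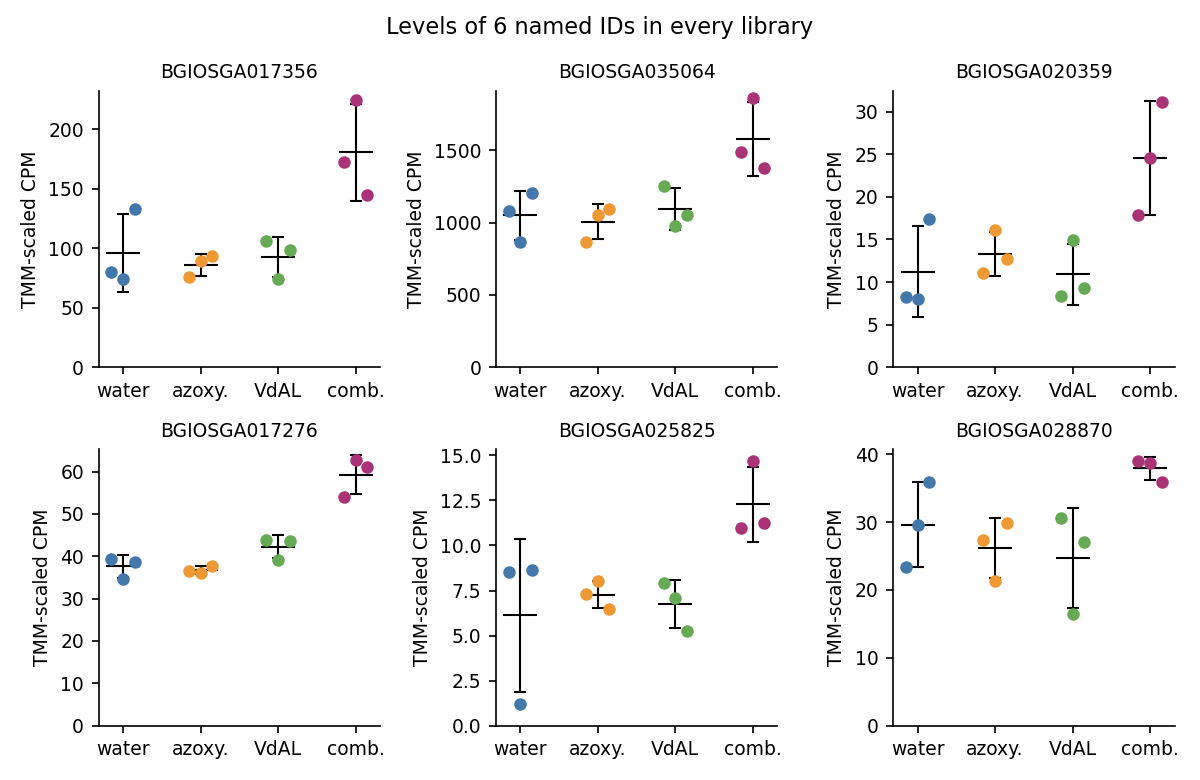
TMM-scaled CPM of 6 members in each of the 12 libraries (points), with the treatment mean and SD of 3 libraries (black marks). In BGIOSGA017276 the 3 combination libraries, at 54.1 to 62.7 CPM, stand clear of the rest, while in BGIOSGA028870 water replicate 3 reaches the lowest combination library.

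The members with the smallest p in the contrasts of the combination included BGIOSGA017276 and BGIOSGA006958. BGIOSGA017276 stood at 39.5, 34.5 and 38.7 CPM in water, 36.5, 35.98 and 37.7 CPM in azoxystrobin, 43.9, 39.1 and 43.7 CPM in VdAL, and 54.1, 62.7 and 60.98 CPM in the combination. The log2 difference of the combination was 0.66 from water and 0.69 from azoxystrobin (SE 0.12 each), and 0.49 from VdAL (SE 0.12). BGIOSGA006958 had 44.7, 45.1 and 49.4 CPM in water, 48.05, 50.9 and 66.3 CPM in azoxystrobin, 41.1, 43.7 and 54.02 CPM in VdAL, and 77.98, 78.9 and 72.1 CPM in the combination. Its nearest library was azoxystrobin replicate 3, and its combination mean of 76.3 ± 3.71 CPM was 1.55 times that of the other 9.

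The single EPlOING member, EPlOING00000031720, was spread widely within treatments, with 11.6, 5.24 and 21.5 CPM in water, 11.1, 21.6 and 13.4 CPM in azoxystrobin, 9.13, 18.9 and 12.6 CPM in VdAL, and 22.7, 25.8 and 25.7 CPM in the combination. Water replicate 3 and azoxystrobin replicate 2 were nearly as high as the combination. IDs with the EPlOING prefix made up 1.32% of the members, 2.76% of the IDs at the CPM floor and 6.08% of all tested IDs. The other 75 members had the BGIOSGA prefix. Sorted by the number within the ID, 1 pair of neighbouring members lay within 10 numbers of each other. It was BGIOSGA004075 and BGIOSGA004078, singled out after their values were seen, and no genome position is read from these numbers.

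At the edge of the ratio, the members just inside were BGIOSGA002958 at 1.402 and BGIOSGA000486 at 1.404. BGIOSGA002958 ran from 43.9 to 71.8 CPM in the other 9 libraries and from 78.5 to 98.0 CPM in the combination. The IDs just outside, which met every other condition, were BGIOSGA008966 at 1.392 and BGIOSGA032680 at 1.39. BGIOSGA008966 ran from 110.6 to 165.8 CPM in the other 9 libraries and from 181 to 210.3 CPM in the combination. In all, 100 IDs met every condition but the ratio.

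The mean CPM of the members ran from 5.30 to 1181 with a median of 24.9, where the rule sets the lower end at 5 CPM. The 15558 IDs at the CPM floor had a median of 25.3 CPM and reached 19044 CPM. When those IDs were divided into 3 equal bins of mean CPM, 30 members fell in the lowest bin, 23 in the middle bin and 23 in the highest. The lowest raw count of a member in any library had a median of 125.5 reads over the members and a minimum of 12 reads.

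The water libraries were the least even for the members. The coefficient of variation over the 3 libraries of a treatment had a median over members of 25.1% for water, 18.5% for azoxystrobin, 14.4% for VdAL and 11.1% for the combination. Over the IDs at the CPM floor these medians were 15.9%, 12.7%, 13.2% and 11.95%. The rule acted on these same libraries, and its part in these medians was not tested.

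That unevenness had a direction which most members shared. Water replicate 3 was the highest water library for 60 of the 76 members, or 78.9%, and for 34.0% of the IDs at the CPM floor. It was also the highest of the 9 other libraries for 36 members, or 47.4%, against 16.8% of the IDs at the floor. With RLE or upper-quartile factors this held for 32 members, and with library sizes alone for 27. Water replicate 2 was the lowest of all 12 libraries for 36 members, against 9.26% of the IDs at the floor. In 43 members the water libraries stood in the order replicate 3, then 1, then 2, or 56.6% against 16.8% at the floor. The median fold of the combination mean was 1.66 over the mean of water replicates 1 and 2, and 1.27 over water replicate 3 alone.

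Most pairs of members deviated from their treatment means in the same direction. Deviations of log2 CPM from the treatment mean correlated between pairs of members with a median r of 0.35 over 12 libraries (interquartile range 0.06 to 0.59, 2850 pairs). The median over all pairs of IDs at the CPM floor was 0. Of the member pairs, 79.4% had an r above 0, and 49.9% of the pairs at the floor. The pairs share their libraries, depth and scaling factors, and the rule acted on the same values. Within azoxystrobin, replicate 2 was the highest library for 41 members, or 53.9% against 31.8% at the floor. Within the combination, replicate 2 was the highest for 46 members, or 60.5% against 35.9% at the floor. Combination replicate 2 had the lowest TMM factor of all libraries, 0.926, which raises its CPM. With library sizes alone it was the highest for 34 members, with RLE factors for 46 and with upper-quartile factors for 43. The part of the scaling in this was not tested.

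The next-highest treatment was not fixed. The highest mean after the combination was that of water in 26 members, of azoxystrobin in 26 and of VdAL in 24. The ratio of the azoxystrobin mean to the water mean had a median of 0.998 over the members, and that of VdAL to water 1.02, both held near 1 by the rule.

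edgeR's quasi-likelihood test over all 12 libraries is given for orientation, since its contrasts use the values that chose the members. An ID is counted as called where its Benjamini-Hochberg adjusted p over all tested IDs was under 0.05. Against water, 11 of the 76 members were called higher in the combination, where the test called 0.491% of all tested IDs higher. DESeq2 called 21 members, against a background of 1.2% of the same IDs. Leaving out a library changed that number. It went up to 26 without water replicate 3 and down to 0 without water replicate 2, while the number over all tested IDs went from 105 to 273 and 40. The number of members was 1 without combination replicate 2 (of 50 IDs called higher in all). It was 2 without water replicate 1 (of 52), combination replicate 1 (of 32) or combination replicate 3 (of 38). It was 7 without azoxystrobin replicate 3 (of 80) or VdAL replicate 3 (of 78). The median log2 difference from water was 0.61 over the members (range 0.36 to 1.14) and −0.0113 over all tested IDs.

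Against azoxystrobin, edgeR called 0 members and 0% of all tested IDs higher in the combination, and voom also called 0. The unadjusted p was under 0.05 for 67 members, chosen on these same values, and for 2574 of all tested IDs in either direction. DESeq2 called 11 members, against a background of 0.617%. The median log2 difference over the members was 0.64 (range 0.35 to 1.07). Against VdAL, edgeR called 0 members, and 0.00935% of all tested IDs were called higher. Voom again called 0 of all tested IDs, and DESeq2 called 11 members against a background of 0.978%. An unadjusted p under 0.05 was found for 63 members, and for 2735 of all tested IDs in either direction. The median log2 difference was 0.62 (range 0.36 to 1.18). Without water replicate 2, edgeR called 4 members of 41 IDs called higher against azoxystrobin, and 5 of 110 against VdAL. Without water replicate 3 it called 2 of 3 and 4 of 58.

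The interaction compares the log2 effect of VdAL on leaves with azoxystrobin with its effect on leaves without it. It is positive where both agents together gave more than their separate log2 effects add up to. Its median was 0.61 over the members (range 0.32 to 1.11), and 3 members were called positive, or 3.95%, where 3.36% of all tested IDs were. DESeq2 called 5, against a background of 4.77%. The members' share is near the background. On the group means, the limits of the rule allow only a positive value for a member, so the sign was fixed in advance. Without water replicate 2 the test called 13 members of 1023 IDs called positive, against 3 of 718 with all libraries. It called 5 members without azoxystrobin replicate 2 (789 IDs in all) or VdAL replicate 1 (963 IDs). It called 1 member without water replicate 3 (534 IDs), azoxystrobin replicate 1 (554 IDs), combination replicate 1 (525 IDs) or combination replicate 3 (610 IDs). It called 0 members without azoxystrobin replicate 3, VdAL replicate 2, VdAL replicate 3 or combination replicate 2, where 281 to 530 IDs were called in all.

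In the contrasts between the lower 3 treatments, which the rule kept close, edgeR called 0 members. Of all tested IDs, 2.66% were called for azoxystrobin against water and 3.55% for VdAL against water, in either direction. For VdAL against azoxystrobin 0% were called. DESeq2 also called 0 members in each, with backgrounds of 4.75%, 5.35% and 0.0327%. In edgeR 0 members had an unadjusted p under 0.05, where 3587, 3442 and 718 of all tested IDs had one in the same order. The comparisons against water share the water libraries, and those with the combination share the combination libraries.

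The same rule was then applied with each of the other treatments singled out. It gave 178 IDs highest in water only, 13 highest in azoxystrobin only and 12 highest in VdAL only, beside the 76 of the combination. For water the closeness condition was taken around the combination mean, so that the 3 treated groups had to be alike. The mirrored rule gave 48 IDs lowest in the combination only, 131 lowest in water only, 11 in azoxystrobin only and 31 in VdAL only. Complete separation of the combination from the other 9 libraries, with no other condition, was met upwards by 1.31% of all tested IDs and downwards by 1.38%. Water was separated in this way upwards for 2.81%, azoxystrobin for 0.524% and VdAL for 0.613%. No difference between these counts was tested.

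**Figure D3:**
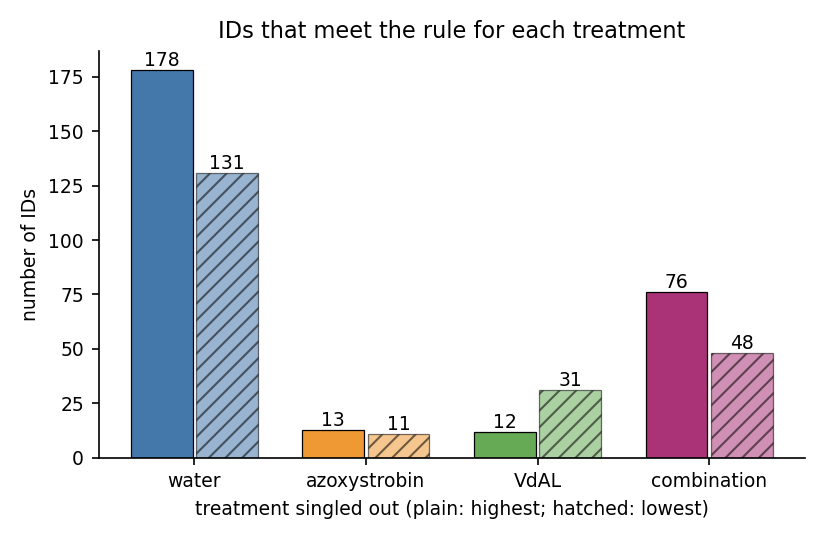
Number of IDs that met the rule when each treatment in turn was singled out as the highest (plain bars) or, mirrored, the lowest (hatched bars) of the 4. The combination gave 76 and 48 IDs, fewer than water with 178 and 131 and more than either single treatment.

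A reading of the contrast in libraries that the choice did not use was obtained by choosing IDs on 8 libraries and looking at the 4 left out. Replicate 1 of every treatment was left out first, then replicate 2, then replicate 3, with the scaling factors of all 12 libraries kept. Choosing without replicate 1 gave 162 IDs, of which the 150 of largest ratio were kept, and 50 of them were among the 76 members. In the libraries left out, the combination was the highest of the 4 for 92 of the 150, or 61.3%, against 21% of all tested IDs. Choosing without replicate 2 gave 64 IDs, 26 of them members, and the combination was highest for 37, or 57.8%, against 28.1% of all tested IDs. Choosing without replicate 3 gave 251 IDs, of which 150 were kept and 34 were members. The combination was then highest for 53, or 35.3%, against 22.5%. Over all 251 chosen IDs the share was 30.7%. Each round sets 1 combination library beside 1 library of each other treatment. The chosen IDs share those libraries, so they are not independent readings and do not act as replicates of a treatment.

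Against the separate treatments the held-out rounds differed. With replicate 3 held out, the combination library was above VdAL for 93.3% of the chosen IDs and above azoxystrobin for 84.7%, but above water for 39.3%, where 48.7% of all tested IDs were above water. With replicate 1 held out the shares were 82.0% above water, 88.7% above azoxystrobin and 78.0% above VdAL, and with replicate 2 held out 82.8%, 68.8% and 79.7%. Among all tested IDs these shares lay between 48.7% and 51.1%. The elevation also shrank outside the libraries used for choosing. The median ratio of the combination to the mean of the others went from 1.53 to 1.33 with replicate 1 held out, from 1.497 to 1.299 with replicate 2 and from 1.66 to 1.23 with replicate 3, and over all tested IDs it was 0.986, 0.992 and 0.993.

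**Figure D4:**
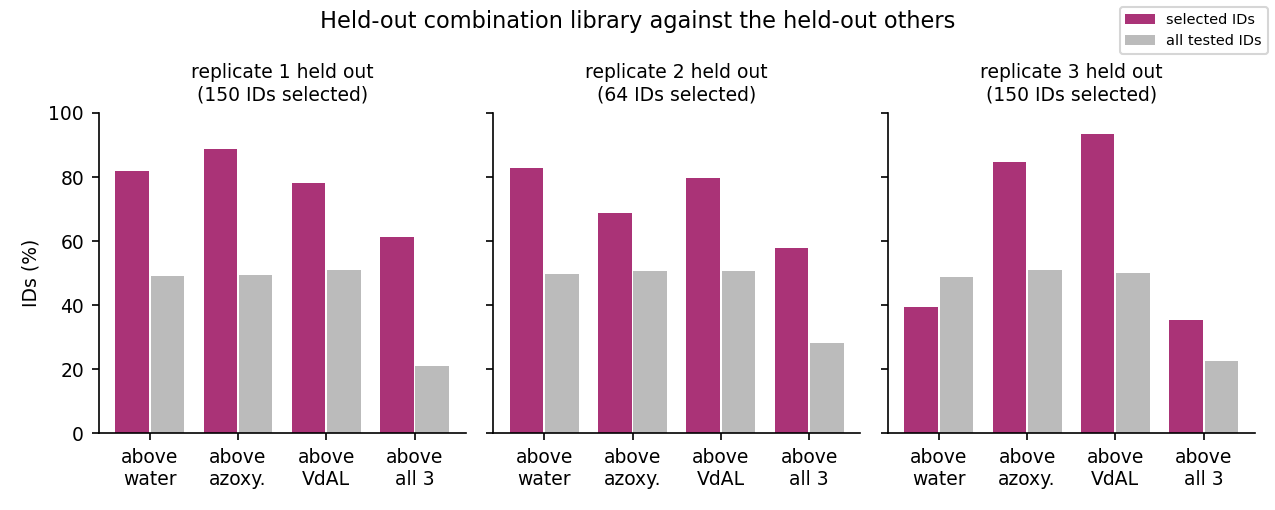
Share of IDs (%) in which the held-out combination library lay above the held-out water, azoxystrobin and VdAL library and above all 3, for IDs chosen on the other 8 libraries (dark bars) and for all tested IDs (grey bars). With replicate 3 held out, the share above water is 39.3%, below that of all tested IDs.

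Of the 76 members, 7 were chosen in each of the 3 rounds, 30 in 2 of them, 29 in 1 and 10 in none. Of the 7, the largest ratios were those of BGIOSGA021111, described above, and BGIOSGA015105. The latter stood at 45.97, 45.02 and 64.7 CPM in water, 53.8, 53.4 and 50.9 CPM in azoxystrobin, 55.8, 51.1 and 52.1 CPM in VdAL, and 81.9, 94.8 and 70.01 CPM in the combination. Its nearest library was also water replicate 3, and the combination mean was 82.2 ± 12.4 CPM.

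Leaving out single libraries changed the number of IDs that met the rule. It was 47 without water replicate 2 and 157 without water replicate 3, before the limit of 150. It was 159 without combination replicate 1 and 122 without combination replicate 3, where fewer libraries had to be above the rest. For the other 8 libraries it lay between 65 and 97. Of the 150 IDs kept without water replicate 3, 51 were among the 76. With library sizes used without TMM factors the rule found 38 IDs, 32 of them among the 76.

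The libraries differed in the share of reads that did not align uniquely, which were kept out of the gene counts. That share was 12.6% to 13.0% in the combination, 9.01% to 16.1% in water, 12.1% to 15.7% in azoxystrobin and 15.3% to 22.4% in VdAL. Water replicate 3 had the lowest share and, of the 9 libraries outside the combination, the highest median level of the members, 0.15 on the log2 scale above the mean over 12 libraries. Water replicate 2, at 16.1%, had the lowest median level, −0.44. Azoxystrobin replicate 2 had the lowest share within its treatment, 12.1%, and the highest median within it, 0.00, against −0.32 at 14.7% and −0.13 at 15.7%. In VdAL the medians were −0.08 at 22.4%, −0.07 at 15.3% and −0.16 at 15.8%. In the combination they were 0.42 at 12.6%, 0.54 at 13.0% and 0.45 at 12.9%, above the other libraries by the choice of members. With the share as a covariate in the edgeR model, the median log2 difference of the members was 0.61 from water, 0.60 from azoxystrobin and 0.47 from VdAL. The median interaction in that model was 0.42, above 0 in 72 of the 76 members, with 0 members called of 469 IDs called positive in all. Against water that model called 13 members of 151 IDs called higher in all, where the model without the share called 11 of 105. Against azoxystrobin and against VdAL it called 0 members of 0 IDs. Members were chosen on these values, and the part of the share in their levels was not tested.

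**Figure D5:**
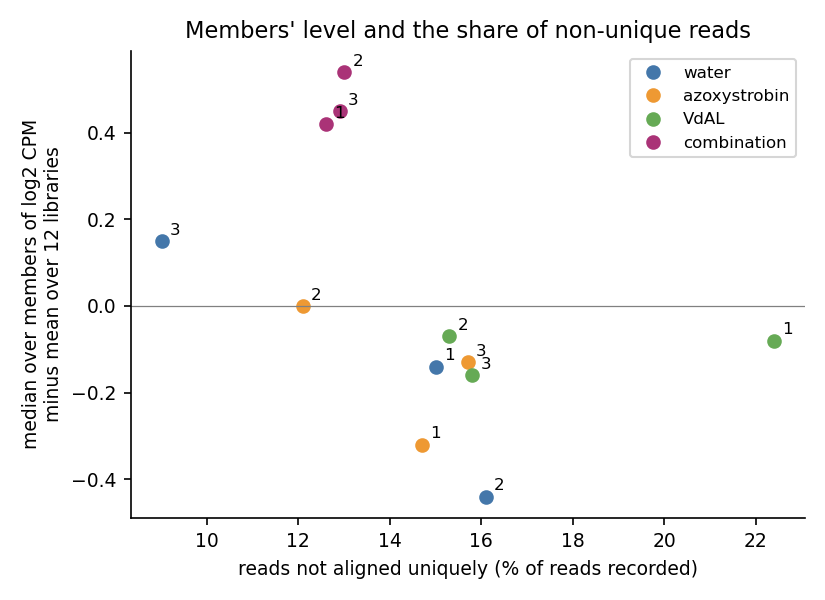
Median over the 76 members of log2 CPM minus the mean over 12 libraries (vertical axis) against the share of reads not aligned uniquely (horizontal axis, % of reads recorded), 1 point per library with its replicate number. The 3 combination libraries lie at 0.42 to 0.54, and water replicate 3, with the lowest share at 9.01%, is the highest of the others at 0.15.

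The depth was between 6444650 gene reads (combination replicate 3) and 10144564 (water replicate 2, where the members were most often lowest). The summed level of the 76 members was 6285, 7355 and 6198 CPM in the combination and 3412 to 5169 CPM in the other 9 libraries, with the highest of these in water replicate 3.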

How the data were processed

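Messenger RNA of 12 leaf libraries was analysed from the authors' tables of raw read counts, 1 table per library with 88438 gene IDs and 5 closing rows. The submitters' processing notes name TopHat2 2.1.0, HTSeq 0.6.1 and edgeR 3.16.3. They also name a pig genome build, which the IDs (40745 with the prefix BGIOSGA, 47693 with EPlOING) do not bear out, so no coordinates are given. The sources used here do not give the counting mode, strand setting or annotation, so overlapping genes may not be told apart. Closing rows entered neither library sizes nor tests. They held 9.01% to 22.4% of the reads recorded as not uniquely aligned, 42.2% to 49.6% as outside genes and 0.646% to 0.833% as ambiguous. None of the IDs matched the reference table of 39387 genes (0 matches), so the pathway lists were not tested and no sequence is printed.

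The tests used edgeR 4.0.16 under R 4.3.3, with filterByExpr by treatment (minimum count 10), TMM factors, and glmQLFit and glmQLFTest on a group-means model of all 12 libraries (8 residual degrees of freedom, prior 8.9). Two-sided p-values received a Benjamini-Hochberg adjustment over 21381 IDs. The SE of a log2 difference is its absolute value over the root of F. Log2 CPM used a prior count of 2. An adjusted p that DESeq2 left out counts as not called. Alternatives were other factors, DESeq2 1.42.0, voom in limma 3.58.1, no filter, a block, a covariate, fewer libraries and other limits of the rule. The procedure was tested on simulated data in which IDs varied independently, which does not cover the variation that members shared. No libraries of a treatment agreed within sampling noise (lowest chi-square per degree of freedom 4.16). The spread behind a p-value is that of these libraries and may be technical. The members and lists were chosen with earlier results of these data known. Named IDs are at most 2 for each of these: largest ratio, highest and lowest mean CPM, widest and narrowest distance between groups, smallest p in each contrast of the combination, EPlOING prefix, the held-out rounds, and each side of the edge of the ratio. Outside this rule, BGIOSGA004075 and BGIOSGA030726 were named after their values were seen.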

Additional observations from a re-analysis of the deposited data

Results flagged for a closer look

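The interaction, which tests whether the effect of VdAL differed with and without azoxystrobin, passed the threshold in edgeR for 3 members, named here after their values were seen. The rule used the same values, so this is not independent of how they were chosen. The 3 members are 3.95% of the 76, where 3.36% of all tested IDs were called positive. The number was 1 with RLE factors (of 633 IDs called positive in all), upper-quartile factors (of 587) or voom (of 678). It was 0 with library sizes alone (of 493) or when each library's percentage of non-uniquely aligned reads was a covariate (of 469). BGIOSGA017356 had an interaction of 1.11 on the log2 scale, with 95.7 ± 32.5 CPM in water, 85.9 ± 9.13 CPM in azoxystrobin, 92.6 ± 16.7 CPM in VdAL, and in the combination 180.3 ± 40.6 CPM (SD, n = 3 each). BGIOSGA030726 had 0.96, with means of 36.4, 29.7, 36.04 and 57.5 CPM in the same order. BGIOSGA004078 had 0.79, with means of 37.6, 31.0, 35.1 and 50.3 CPM. In each of the 3 the azoxystrobin mean was the lowest of the 4, as it was in 27 of all 76 members. A low azoxystrobin mean raises the interaction by its definition. BGIOSGA017356 was the one of them that was also called against water.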

How the results depend on the processing

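The number of members was 38 with library sizes alone (32 of them among the 76), 27 with single-treatment means held to 0.9 to 1.1 times water, 1 at a ratio of at least 2, and 47 to 150 when libraries were left out. Other factors, no filter and the other limits kept it within 1.5 times. Library sizes alone moved the median of all tested IDs by −0.10 against each single treatment and by −0.19 for the interaction, with member medians of 0.53, 0.53 and 0.42. Members called against water were 21 with DESeq2 (of 257 IDs called higher in all), 40 without a filter (of 352), 3 with the 6 libraries compared (of 41) and 0 to 26 when a library was left out (totals 32 to 273). Against azoxystrobin the counts were 11 (of 132), 32 (of 682), 12 (of 163) and 0 to 4 (totals 0 to 41), and against VdAL 11 (of 209), 34 (of 736), 18 (of 283) and 0 to 5 (totals 0 to 110). For the interaction they were 1 with RLE factors (of 633), upper-quartile factors (of 587) or voom (of 678), and 0 with library sizes alone (of 493) or the covariate (of 469). They were 5 with DESeq2 (of 1019), 13 without a filter (of 1478) and 0 to 13 when a library was left out (totals 281 to 1023). The held-out share with library sizes alone was 61% for replicate 1 (of 82 IDs), 40.4% for replicate 2 (of 47) and 29.3% for replicate 3 (of 150). With TMM it was 61.3%, 57.8% and 35.3%. The share over all tested IDs under library sizes alone is not given here, so these values have no background beside them. The cause of these shifts was not tested. For the 19 IDs of the naming rule the log2 difference from water ran from 0.22 to 1.59 over 342 values, positive by the way they were chosen, and 16 of these values lost and 14 gained a call.

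The replicate block gave 9 members called against water (of 91 IDs in all), 0 against azoxystrobin (of 0), 0 against VdAL (of 0) and 2 for the interaction (of 577). Same-numbered libraries correlated at −0.20 to 0.10 in their deviations. With 3 libraries per treatment this does not settle whether the numbers pair the libraries.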
